A study of Mus musculus with 6 samples.

Results

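Skeletal muscle that rebuilds its fibres after injury passes again through a developmental program, in which new fibres assemble sarcomeres from embryonic and cardiac protein isoforms before adult isoforms replace them. The genes described here are 5 developmental sarcomere isoforms (Myh3, Myh8, Myl4, Actc1 and Tnnt2) and 2 adhesion molecules of muscle precursors and young fibres (Ncam1 and Cdh15). They were taken by name from the deposited gene table, and all 7 of the 7 genes are listed among its 14015 genes with a symbol.

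Bulk RNA sequencing was performed on mouse quadriceps muscle 7 days after volumetric muscle loss, a surgical removal of part of the muscle belly, in which no material was implanted. The samples came from 3 WT mice, young adult female C57BL/6 animals per the methods, and from 3 mice labelled GATA-1 mutant, the ΔdblGATA strain, whose constitutive loss of a GATA site in a Gata1 promoter removes eosinophils from all tissues and not from muscle alone. The age and sex of the ΔdblGATA mice are not given in the sources used here, and the paper does not name their genetic background. The control wounds received saline per the methods. The level analysed for each gene is the authors' mean log2 CPM (estimated counts per gene scaled to a common library total) over all 6 samples, so it averages both genotypes. Single mice were not analysed here, so the depth behind each value is unknown, and no spread over mice or test of the genotypes can be given. Levels are therefore a description of injured muscle of both genotypes together, and whether neighbors in any order of levels differ beyond their spread was not tested. All samples are of injured muscle on the same day after surgery, so re-expression after injury cannot be told from a level present before it. Nor can RNA of new fibres be told from that of fibres the surgery spared. In bulk tissue, more cells of a type and more RNA per cell cannot be told apart.

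The tissue label was checked by 5 skeletal muscle genes, all of which are listed, with mean levels from 10.70 log2 CPM to 12.66 log2 CPM. On the length-scaled scale, which subtracts log2 of the transcript length in kb so that genes can be compared if the summed counts grow with length, the highest of them was Ckm, muscle creatine kinase, at 10.99, and the lowest Ttn, which encodes the giant protein titin, at 5.92. Of 5 heart genes, Nppa, Myl7 and Ryr2 are not listed, and the remaining 2, Tnni3 and Myh6, had length-scaled levels of -0.59 and -6.08. None of 5 eosinophil genes (Siglecf, Ccr3, Epx, Prg2 and Il5ra) is listed. The authors removed genes of low level, so this does not show that the cells were absent. By flow cytometry, the paper found eosinophils in control wounds.

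Myosin heavy chains are the motor proteins of the thick filament. Myh3 encodes the embryonic and Myh8 the perinatal heavy chain, and both lie on chromosome 11 of GRCm38 on the plus strand, Myh3 at 67078300 to 67102291 and Myh8 at 67277124 to 67308634. The 3 adult fast heavy chain genes lie between them, so the genes run in the order Myh3, Myh2, Myh1, Myh4 and Myh8 over 230.335 kb, with Myh13 next. Because these genes are close copies, part of the reads from one could equally come from another. The longest stretch of coding sequence that Myh8 has in common with Myh4, the adult IIb chain, and the longest that Myh3 has in common with Myh2, the adult IIa chain, are shown. A read wholly within one of them cannot be assigned by its own sequence alone, although its mate in the read pair may lie outside. The first is at coding bases 2950 to 3113 of Myh8 and 2953 to 3116 of Myh4, and the second at coding bases 3973 to 4058 of Myh3 and 3991 to 4076 of Myh2, counted from the A of the start codon in GENCODE M21 transcripts.
Myh8 and Myh4: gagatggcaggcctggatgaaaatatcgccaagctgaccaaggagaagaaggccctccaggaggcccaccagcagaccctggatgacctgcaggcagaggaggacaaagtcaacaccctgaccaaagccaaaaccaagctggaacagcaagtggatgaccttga
Myh3 and Myh2: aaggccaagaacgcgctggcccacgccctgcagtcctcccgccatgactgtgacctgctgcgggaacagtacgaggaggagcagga
The first stretch is 164 bases long and the second 86 bases.

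Myh8 had a mean of 8.88 log2 CPM (472 CPM as a geometric mean) and Myh3 a mean of 8.09 log2 CPM (272 CPM). Their transcripts are nearly the same length, 6149 and 6031 bases, and the length-scaled levels were 6.26 for Myh8 and 5.50 for Myh3. The length-scaled level of Myh3 was thus 58.8% of that of Myh8. Both were above most of the 13945 genes with a known length, Myh8 at or above 95.2% of them and Myh3 at or above 91.6%.
Both developmental chains were below every adult fast chain of the cluster on the length-scaled scale. Myh4 was the highest at 12.06, followed by Myh1, the IIx chain, at 9.98 and Myh2 at 7.96. The level of Myh8 was 1.80% of that of Myh4 and 30.9% of that of Myh2, and the level of Myh3 was 1.06% of that of Myh4 and 18.2% of that of Myh2. Along the cluster, the level went up from Myh3 to Myh4 and was lower at Myh8 and at Myh13, an extraocular muscle chain, which stood at -1.49.

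**Figure D1:**
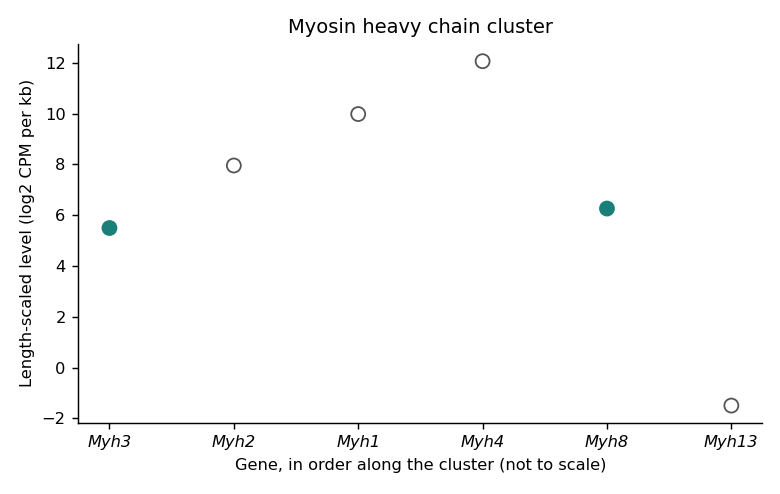
Length-scaled mean level (log2 CPM per kb, vertical axis) of the 6 protein-coding myosin heavy chain genes in their order along chromosome 11 (horizontal axis, not to scale), each point 1 gene's mean over all 6 samples, filled for Myh3 and Myh8. Myh3 at 5.50 and Myh8 at 6.26 lie below Myh2, Myh1 and Myh4 and above Myh13.

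The slow adult chain Myh7, which lies on chromosome 14, had a length-scaled level of 4.92. On this scale Myh8 was 2.53-fold and Myh3 1.49-fold of Myh7, but with the median transcript length of each gene in place of the longest coding transcript the differences were -1.67 and -2.99 on the log2 scale, so that both members were then the lower. The order of Myh7 relative to these members therefore depends on the transcript length chosen. Myh6, the heart alpha chain, was listed at -3.46 log2 CPM, where no ratio is given because so low a mean must average samples of very different level if the authors' filter, above 1 CPM in at least 3 samples, held on this scale.

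To see how far the heavy chain levels rest on shared sequence, the 31-base words of each transcript were searched, on either strand, in the transcripts of other genes, and the percent found there was taken. For Myh8 it was 32.5% and for Myh3 11.2%. Myh8 had 19.5% of its words in common with Myh2, 17.4% with Myh1 and 15.3% with Myh4, whereas for Myh3 these shares were 6.27%, 4.28% and 3.47%. Over the coding sequence, Myh8 was 88.1% identical to Myh4 and 89.3% identical to Myh1, while Myh3 was 80.8% and 80.6% identical to them. Myh3 and Myh8 were 81.1% identical to each other. The sharing was thus greater for Myh8, the member with the higher level of the pair, and its adult neighbors in sequence were up to 55.7-fold higher on the length-scaled scale. The part that shared reads play in the level of Myh8 was not tested.

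**Figure D2:**
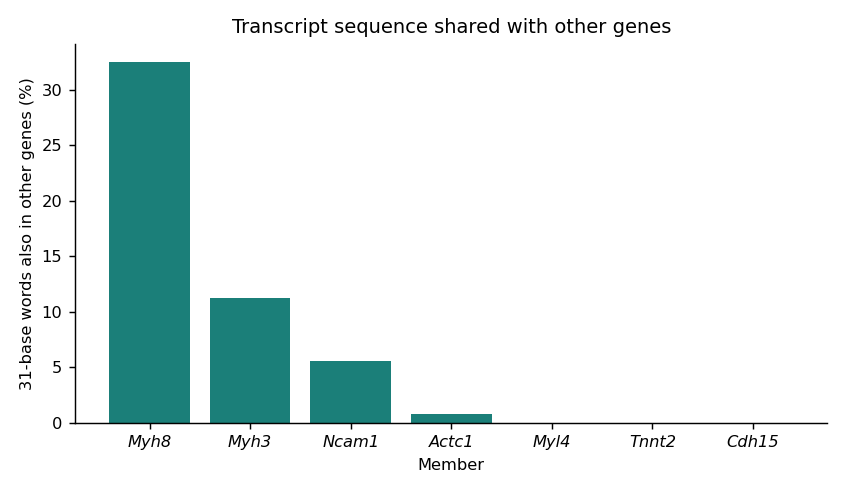
Percent of each member's distinct 31-base words that also occur in transcripts of other genes (bars, vertical axis) for the 7 members (horizontal axis). Myh8 at 32.5% and Myh3 at 11.2% stand above Ncam1 at 5.55% and Actc1 at 0.832%, and Myl4, Tnnt2 and Cdh15 are at 0.

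Actc1 encodes cardiac alpha-actin, the thin filament actin of the heart and of developing skeletal muscle (chromosome 2 of GRCm38, minus strand, 114047282 to 114053548). It had the highest level of the 7 genes, with a mean of 10.32 log2 CPM (1282 CPM) and a length-scaled level of 9.77, which was at or above 99.6% of genes with a length and ranked 51. Acta1, the alpha-actin of adult skeletal fibres, stood at 13.77 on the length-scaled scale, so that Actc1 was at 6.22% of its level. Actc1 was 2.51-fold of the cytoskeletal actin gene Actb, at 8.44, and 12.2-fold of the smooth muscle actin gene Acta2, at 6.15.
Actin proteins are highly alike, and their transcripts were compared for this reason. The coding sequences of Actc1 and Acta1, both 1131 bases long, were 86.3% identical, and their longest common stretch is shorter than a 31-base word. It is shown because it is the longest run of identical coding bases between Actc1 and the more abundant Acta1, and it lies at coding bases 964 to 992 of both genes.
Actc1 and Acta1: ctggctcccagcaccatgaagatcaagat
Only 12 of the 1443 words of Actc1 occur in other genes, and none of them in a transcript of Acta1 or Acta2. The opposite strand holds the annotated gene A530058N18Rik, which is not listed in the table.

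Myl4 encodes the embryonic and atrial essential light chain of myosin (chromosome 11 of GRCm38, plus strand, 104550663 to 104595753). Its mean was 7.26 log2 CPM (153 CPM), and its length-scaled level of 7.34 was the second of the 7 genes, at or above 97.6% of genes with a length. That place depended on the length chosen: with the longest transcript of any kind its level was 5.55, and another gene of the 7, Myh8, then stood between it and Actc1. Other members also stood between them with the shortest coding transcript and without length scaling. The adult fast light chain genes were far higher on this scale, Mylpf, a regulatory light chain, at 13.32 and Myl1, the essential light chain, at 12.83, so that Myl4 was at 1.58% and 2.23% of their levels. The slow light chain genes were lower than Myl4, Myl3 at 6.43 and Myl2 at 6.15, and Myl4 was 1.88-fold and 2.29-fold of them.
Tnnt2 encodes cardiac troponin T, the tropomyosin-binding subunit of the thin filament switch, which immature skeletal fibres also make (chromosome 1 of GRCm38, plus strand, 135836354 to 135852260). It had a mean of 6.55 log2 CPM (93.9 CPM) and a length-scaled level of 6.29, beside 6.26 for Myh8. With the longest transcript of any kind Tnnt2 was at 4.82 and Myh8 still at 6.26, so the distance between them depends on the transcript length chosen. The fast troponin T gene Tnnt3 stood at 13.51 and was 149-fold of Tnnt2, the largest ratio by which a relative exceeded a member. The slow gene Tnnt1 stood at 7.37, and Tnnt2 was at 47.3% of it. No 31-base word of Myl4 or Tnnt2 occurs in another gene, although Myl4 overlaps annotated genes on the opposite strand, none of which is listed.

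**Figure D3:**
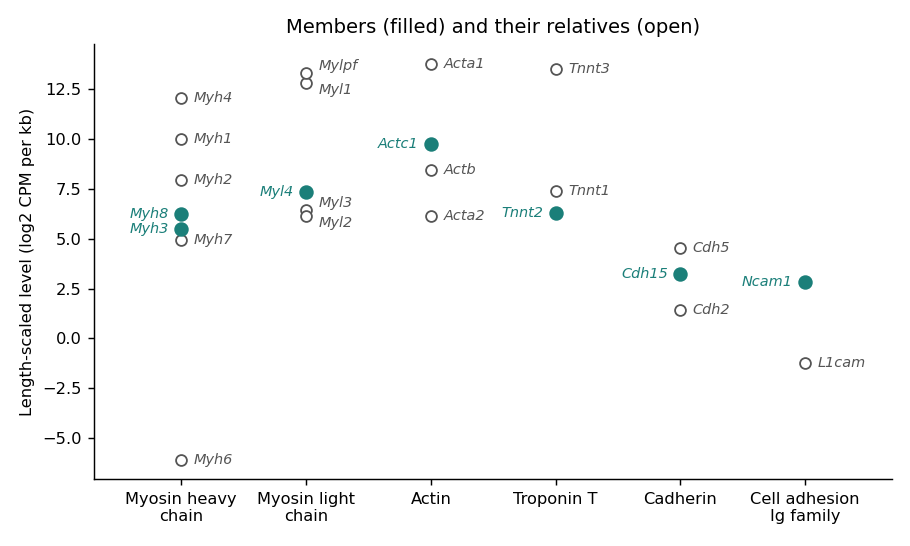
Length-scaled mean level (log2 CPM per kb, vertical axis) of the members (filled) and of their relatives of the same protein family (open), by family (horizontal axis), each point 1 gene's mean over all 6 samples. Every filled sarcomere gene lies below the adult skeletal muscle gene named here for its family (Myh4, Myl1, Acta1 and Tnnt3), with differences (member minus relative, log2 scale) from -4.01 for Actc1 to -7.22 for Tnnt2.

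The 2 adhesion genes had the lowest levels of the 7 members. Cdh15 encodes M-cadherin, a calcium-dependent adhesion molecule of satellite cells, the stem cells of muscle, and of fusing myoblasts (chromosome 8 of GRCm38, plus strand, 122847966 to 122867397). Its mean was 4.94 log2 CPM (30.7 CPM) and its length-scaled level 3.24, at or above 66.7% of genes with a length. It was 3.57-fold of Cdh2, the N-cadherin gene, at 1.40, and at 40.8% of Cdh5, the cadherin gene of endothelial cells, at 4.53. Cdh15 has 1 annotated transcript, and none of its words occurs in another gene, although the annotated gene Gm20388, which is not listed, overlaps it on the same strand.
Ncam1 encodes the neural cell adhesion molecule, which is present on satellite cells, young and denervated fibres, nerve and Schwann cells, and in other species on NK cells (chromosome 9 of GRCm38, minus strand, 49502136 to 49798925). Its mean was 5.54 log2 CPM (46.6 CPM), and its length-scaled level of 2.83 was at or above 59.6% of genes with a length. The related genes Ncam2 and L1cam were not listed and at -1.23, respectively. The length of Ncam1 is uncertain, as its longest coding transcript of 6564 bases has an incomplete coding sequence in GENCODE M21, and 4.68% of the words of that transcript occur in Gm11149, an antisense gene that is not listed. With the median transcript length its level was 4.18, above Cdh15, and with the shortest coding transcript 8.32, so its place among the members depends on the transcript length chosen.
Because Ncam1 is also made outside muscle fibres, genes of Schwann cells and nerve are given beside it. NK cell genes are given too, although NK cells are named above for other species only. The 5 Schwann cell and nerve genes were all listed, with means from -0.03 to 3.86 log2 CPM, and the length-scaled levels of the highest, Mbp, and the lowest, Sox10, were 1.60 and -1.50. The 3 NK cell genes had means from -1.31 to -0.81 log2 CPM, and the length-scaled levels of the highest, Nkg7, and the lowest, Klrb1c, were -0.63 and -2.38. Both lists were below the mean of Ncam1, and their part in the level of Ncam1 was not tested.

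Side by side, the length-scaled levels of the 7 members ran from 9.77 for Actc1 through 7.34 for Myl4, 6.29 for Tnnt2, 6.26 for Myh8, 5.50 for Myh3 and 3.24 for Cdh15 to 2.83 for Ncam1, a range of 6.94 on the log2 scale. Below Actc1 this order changed with the transcript length chosen. The median of the members was 6.26, beside 2.28 over all genes with a length, and 7 of 7 members were above that median. Before length scaling, the members had a median of 7.26 log2 CPM and all 14015 genes one of 4.03 log2 CPM. Of the 22 pairs of a member and a listed relative, the member was the higher in 10 and the lower in 12. These relatives are of unlike kinds. The member was the lower in every pair with Myh1, Myh2, Myh4, Myl1, Mylpf, Tnnt3 or Acta1, and also with Tnnt1 and Cdh5. Pairs with the member higher include those with Myh6, for which no ratio is given, and with Myh7, whose sign depends on the transcript length.

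**Figure D4:**
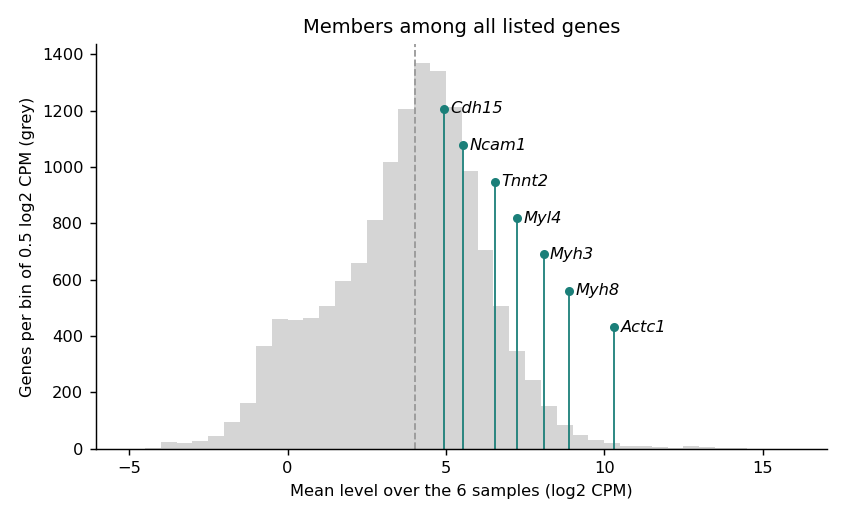
Number of genes per bin of 0.5 log2 CPM (grey bars, vertical axis) by mean level over the 6 samples (log2 CPM, horizontal axis), with each member marked by a line whose height has no meaning and the median of all genes dashed. All 7 members lie above the median of 4.03, from Cdh15 at 4.94 to Actc1 at 10.32.

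**Figure D5:**
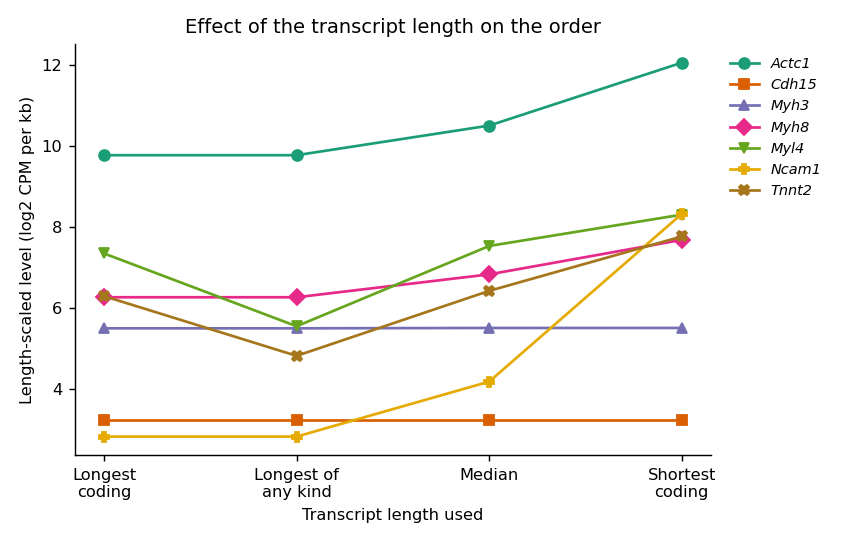
Length-scaled mean level (log2 CPM per kb, vertical axis) of each member under 4 choices of transcript length (horizontal axis), with lines joining the values of 1 gene. Actc1 is the highest under each of the 4 choices, while Ncam1 runs from 2.83 to 8.32.

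The other genes of muscle regeneration, from lists chosen by function, place these levels. All 12 satellite cell, myoblast and fusion genes are listed, the fusion genes Mymk and Mymx under the older symbols Tmem8c and Gm7325, and their median length-scaled level was 3.34. The lowest was Pax7, the transcription factor of satellite cells, at 0.22, and the highest Myf6, a muscle regulatory factor of maturing and adult fibres, at 6.55. The 10 other genes of regenerating fibres had a median of 5.15, from Ankrd1, a stress-responsive sarcomere protein, at 2.49 to Des, the intermediate filament desmin, at 10.14. On this scale the adhesion members Cdh15 and Ncam1 were thus near the median of the first list, and the 5 sarcomere members above that of the second. Without that scaling, Ncam1 at 5.54 log2 CPM and Cdh15 at 4.94 log2 CPM were both above the median of the first list, 4.61 log2 CPM. Before length scaling, Tnnt2 at 6.55 log2 CPM was below the median of the second list, 6.69 log2 CPM, and the other sarcomere members were above it. The 4 smooth muscle genes had a median of 3.31, with Acta2 the highest at 6.15 and Cnn1 the lowest at -0.44.

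The members were also compared by the sequence around their start sites, since such sites can carry elements of muscle transcription factors. RefSeq promoters of 300 bases (GRCm38.p6) matched 6 of the 7 members, with 7 start sites, Tnnt2 having 2, and Ncam1 was not matched. The E-box CANNTG, the element bound by MyoD family factors among many others, was found on either strand in 6 of the 7 promoters, beside 72.3% of all 32851 promoters, and the Myl4 promoter held none. The E-box form CAGCTG and the MCAT element CATTCC were each found in 1 of the 7, a promoter of Tnnt2, beside 16.3% and 14.7% of all promoters. TATAAA was found in 3 of the 7, those of Actc1, Myh3 and Myh8, beside 13.6% of all promoters. Counted along the gene, the match began at -29 from the start site in Myh3, at -96 on the opposite strand in Myh8 and, within the transcript, at position 34 in Actc1. Also on either strand, a CArG box, the serum response factor element, was found in that of Actc1 alone of the members, 1.63% of all promoters holding it, and a MEF2 site, which overlaps the TATAAA of the same promoter, in that of Myh8 alone, beside 3.19%. These matches describe letters in a window and do not show binding.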

How the data were processed

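Quadriceps muscle of 3 WT and 3 GATA-1 mutant mice was sequenced 7 days after injury. Polyadenylated RNA was selected, and the authors pseudoaligned the read pairs with kallisto, summed transcripts by gene, removed genes that did not exceed 1 CPM in 3 or more samples, took logs, normalized by TMM and ran limma. The submitters' processing notes name GRCm39 (mm39), and tool settings are not given in the sources used here. The deposited log2 values used are the authors' mean log2 CPM of each gene over all samples in the fit, taken to be these 6. The other 5 measurement columns (fold change, moderated t, p-value, adjusted p-value and log odds) hold the authors' own comparison of the genotypes and were not used, so no genotype difference was analysed here. Of 14016 rows, 1 has no symbol and was left out.

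Of the symbols, 13458 were found in GENCODE M21 (GRCm38) as written and 487 through a synonym. A length-scaled level is the mean log2 CPM minus log2 of the length in kb of the longest coding transcript. This scaling assumes that counts grow with transcript length. Whether the authors corrected the summed kallisto values for length is not given in the sources used here, and if they did, the unscaled levels are those to compare between genes. Shared 31-base words were counted over all GENCODE M21 transcripts, and coding sequences were aligned globally (biopython 1.88). Promoter sequences are from RefSeq. The percentile calculation was checked on simulated levels, from which the length scaling returned its input by construction. Symbol matching and the choice of transcript were not checked in this way. Genes named are the members, all their chosen relatives, and the highest and lowest gene of each other list together with those not listed, while Mymk, Mymx, Myh13 and the overlapping genes A530058N18Rik, Gm20388 and Gm11149 were named after their values were seen. Members, relatives and lists were chosen with earlier results of these data known. Alternatives were other transcript lengths, protein-coding genes only, a minimum of 1 log2 CPM and no length scaling.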

Additional observations from a re-analysis of the deposited data

How the results depend on the processing

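No paired analysis was possible because the values are means over all samples. The limma fit of the genotypes, planned without covariates, needed values per sample and was not run, because the values used are pooled means. For the same reason, fits without each replicate, another pseudocount and another expression filter were not run. The median percentile of the members was 94.3% among all listed genes by mean log2 CPM. It was 94.3% among protein-coding genes, 93.3% among genes of at least 1 log2 CPM, and 95.2% when ranked by length-scaled level. The median length-scaled level, 6.26, was 5.50 with the longest transcript of any kind, 6.42 with the median transcript and 7.76 with the shortest coding transcript. Of the 22 pairs of a member and a relative, 20 kept their sign under both alternatives. The exceptions were Myh3 against Myh7, at -2.99, and Myh8 against Myh7, at -1.67, with the median transcript length. The member was the higher in 8 pairs then, and in 10 with no length scaling. Of the further values for single genes and pairs, 72 moved by 0.05 percentage points or more (percentiles) or 0.005 or more (log2 values), and 12 by less. The depth per sample is unknown, so no limit of detection can be set.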

Other observations

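The table holds means below 1 CPM although the stated filter required more than 1 CPM in 3 or more samples. There are 1198 such genes with a mean below 0 on the log2 CPM scale, which is 8.55% of those listed. For Myh6, at -3.46, the remaining 3 samples would average below -6.93 if the mean is over 6 samples and 3 of them lay above 0 on this scale. No member is among them, the lowest being Cdh15 at 4.94 log2 CPM. How the samples of these genes are spread was not analysed here.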
